A study of Mus musculus with 26 samples.

Results

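The 34 genes described here act in or around the uptake of fatty acids by heart muscle cells and their breakdown for energy. They were listed by name and sorted by step into uptake, the carnitine shuttle, mitochondrial beta-oxidation, electron transfer, the peroxisome, and a group of thioesterase and fuel switch genes. A probe set assigned to that gene alone was found for 29 of the 34, among 8251 genes in all, and 27 of these passed a filter on low values, among 5564 genes tested. Cpt1b, Hadha, Acsl1, Acat1 and Acot2 have no such probe set in the assignment used here and are not analysed here.

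Total RNA of mouse hearts was measured after transverse aortic constriction (TAC), an operation that narrows the aortic arch and raises the pressure load on the left ventricle, and after sham surgery. The 26 arrays of type MG_U74Av2 made up 6 groups. There were 5 TAC and 4 sham arrays at 48 h, 4 TAC and 4 sham arrays at 10 d, and 5 TAC and 4 sham arrays at 3 wk. The labels used here give no strain, sex, age or genotype, and no degree of constriction. They do not say whether arrays were of different animals, so the p-values speak of the spread from array to array, which may be technical, and the number of arrays limits the precision.

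The adult heart draws most of its energy from long-chain fatty acids. Transport proteins bring them in, the carnitine shuttle carries them across the inner mitochondrial membrane as acylcarnitines, and beta-oxidation then removes acetyl units in repeated rounds of dehydrogenation, hydration, dehydrogenation and thiolysis. Electrons from the first dehydrogenation pass through the electron transfer flavoprotein into the respiratory chain, and the nuclear receptor PPARα with its coactivator PGC-1α is known to keep many of these genes active in heart.

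Levels are given as linear array intensities. Across probe sets, which are not independent replicates, pairs of arrays within a group had r = 0.922 to 0.961, and pairs from different groups 0.878 to 0.965. The ratio of 3′ to 5′ signal was 0.801 to 1.14 for Gapdh and 0.713 to 1.44 for Actb. The 48 h arrays were all scanned on 1 day. Of the 8 arrays at 10 d, TAC replicate 4 was scanned apart from the rest. The main scan day at 3 wk held 3 TAC arrays (replicates 1 to 3) and 2 sham arrays (replicates 2 and 3), TAC replicates 4 and 5 were scanned together on a different day, and the headers give none for sham replicates 1 and 4. Of 18 cardiomyocyte markers 16 had a probe set, and none of the 16 stayed below the floor of 167.9 on every array. The same held for the fibroblast, macrophage and endothelial markers with a probe set, so this does not identify the tissue.

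By limma over all 7297 probe sets, a gene was called where its Benjamini-Hochberg adjusted p was under 0.05. At 48 h, 0 of the 27 genes were called, while 0.0539% of all genes tested were called. At an unadjusted p under 0.05, 3 of the 27 were lower, and the share of all genes at that threshold was not counted. At 10 d, 8 of the 27 fell and 0 rose, while 1.99% of all genes fell and 3.04% rose. At 3 wk, 12 of the 27 fell and 0 rose, while 1.89% of all genes fell and 2.93% rose. The median log2 change, TAC minus sham, was −0.13, −0.30 and −0.38 at 48 h, 10 d and 3 wk, beside medians of −0.01, −0.02 and −0.00 over all genes. The 8 genes that fell at 10 d were Slc27a1, Slc25a20, Crat, Hadh, Eci1, Decr1, Ech1 and Etfa. All 8 were among the 12 that fell at 3 wk, where Acaa2, Etfb, Acaa1a and Acot1 joined them. In RNA of whole hearts, fewer cells of a type and less RNA per cell cannot be told apart.

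Scan day could be fitted at 3 wk only without sham replicates 1 and 4, which have none recorded. Leaving those 2 arrays out, with no block, 6 of the 12 genes were still called (Slc27a1, Crat, Eci1, Decr1, Ech1 and Etfb) and the median change was −0.44, a fit chosen after seeing the data. With scan day as a block on the same arrays 0 of the 27 genes were called, and with the main scan day alone (3 TAC against 2 sham arrays) 1 was called, Etfb, with a median of −0.38 in both, as with all arrays. Chip lot, where the headers give it, divides the 3 wk arrays as scan day does, so lot and day cannot be told apart. Over all probe sets, those called lower were 44 of 7221 without the 2 arrays, 2 of 7221 with the block and 9 of 7123 on the main scan day alone, against 127 of 7297 with all arrays. At 10 d the block left 7 genes called, of which 6 were among the 8, and the main scan day alone left 8, of which 7 were among them. Both lost Hadh and added Acot1, and the block also lost Ech1. The median was −0.33 in both, again 1 estimate, since TAC replicate 4 was scanned apart from all sham arrays of 10 d.

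**Figure D1:**
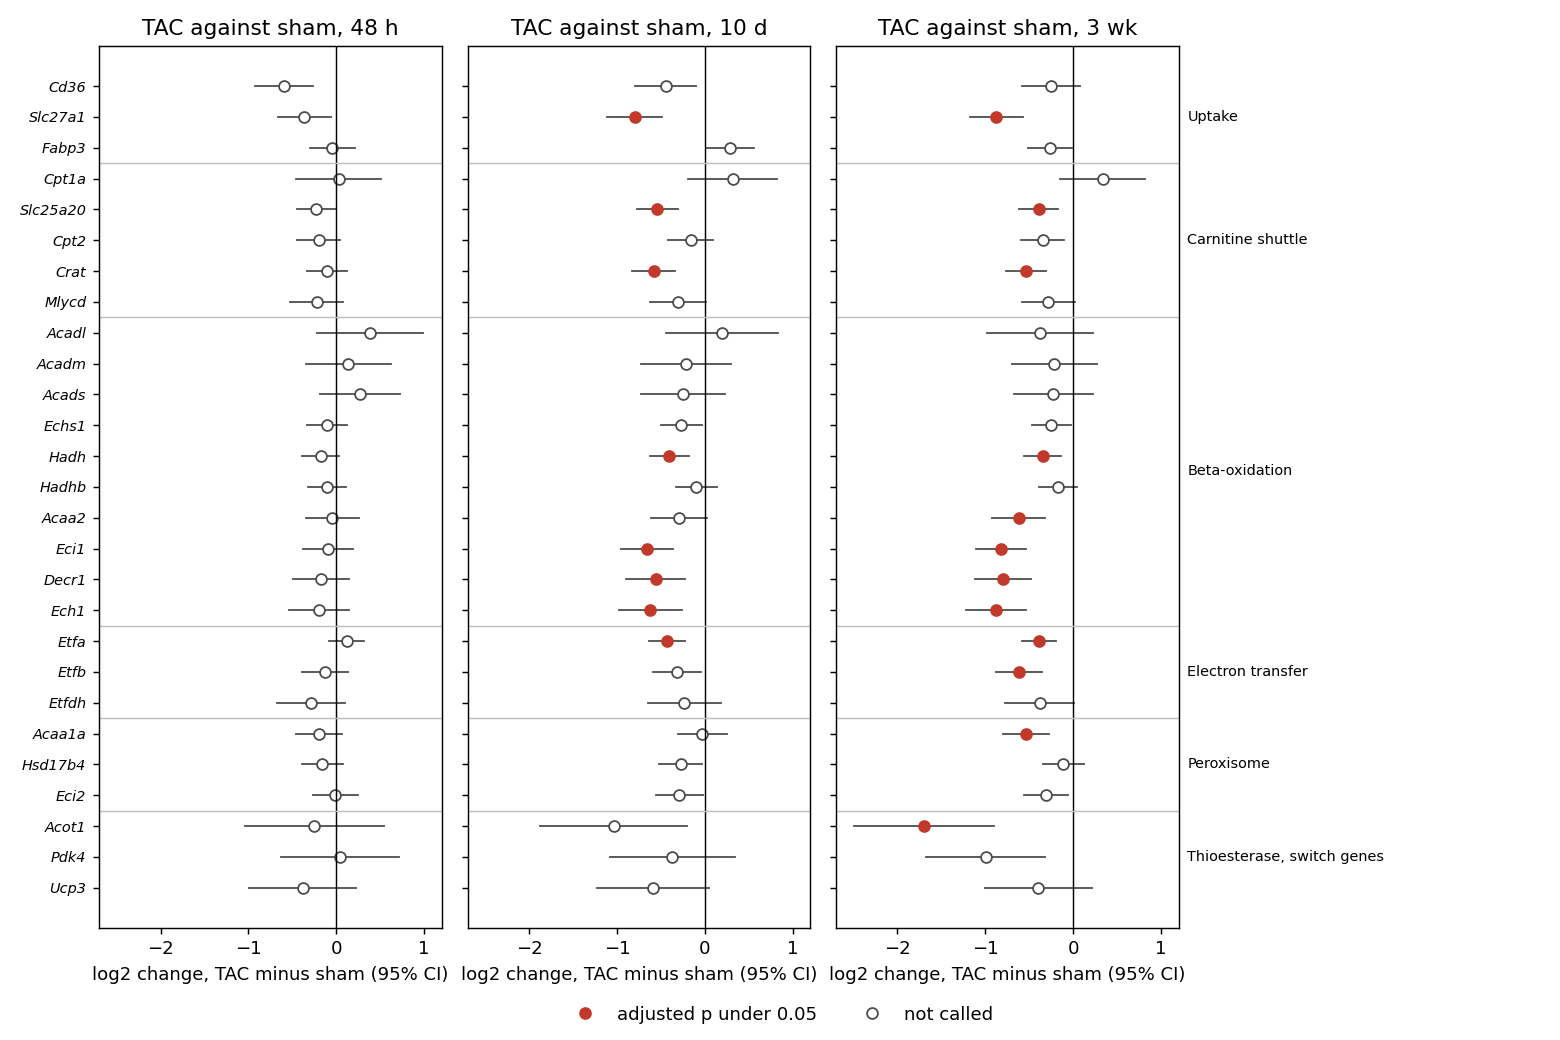
Log2 change, TAC minus sham, of the 27 genes at 48 h, 10 d and 3 wk (panels from left to right), with 95% confidence intervals from limma; genes run down the page by step, and filled red points have an adjusted p under 0.05. No point is filled at 48 h, 8 are at 10 d and 12 at 3 wk, all of them left of the zero line.

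Among the uptake genes, Slc27a1 fell at both later durations, and neither Cd36 nor Fabp3 was called at any duration. Slc27a1 encodes FATP1, a membrane protein that takes up long-chain fatty acids and couples them to coenzyme A. At 10 d its intensities were 5375, 5291, 6365 and 5617 in TAC hearts, against 11149.7, 9184, 10055.5 and 9051.5 in sham hearts. At 3 wk they were 5025, 4522, 4814, 2806 and 4767.5 in TAC hearts, against 8526, 6318, 8032 and 8891 in sham hearts. Every TAC array lay below every sham array at both durations, and TAC replicate 4 at 3 wk was far below the others. The level in TAC hearts was 0.575 of that in sham hearts at 10 d (log2 −0.80, SE 0.15, adjusted p = 0.00253) and 0.545 at 3 wk (log2 −0.87, SE 0.15, adjusted p = 0.000981). On the main 3 wk scan day alone the change was −0.57 (adjusted p = 0.117). At 48 h it was −0.36 (adjusted p = 0.696), with overlapping groups.

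Cd36, the fatty acid translocase that is the main entry route into heart muscle, was below sham on every TAC array at 48 h and 10 d without a call. Its intensities at 48 h were 6685, 5566, 4994, 3723 and 4509 in TAC hearts, against 6763, 8859.8, 8021 and 6789.9 in sham hearts. It was the only one of the 27 genes with every TAC array below every sham array at 48 h, where 1.26% of all genes had that order, and it was not called (log2 −0.60, SE 0.16, adjusted p = 0.22). Its 10 d intensities were 3506, 3535, 3381 and 3507 in TAC hearts, against 4468, 6224, 3889 and 4670.3 in sham hearts. The 10 d groups did not overlap either, and the 4 TAC arrays were close together (log2 −0.45, adjusted p = 0.122; called with array weights, adjusted p = 0.0383). At 3 wk, TAC hearts had 4139, 3905, 4812, 3682 and 5251 and sham hearts had 3680.5, 5953, 5889 and 5438. The 3 wk groups overlapped, since sham replicate 1 had the lowest value of all 9 arrays (log2 −0.25, adjusted p = 0.408). Another probe set of Cd36 was below the floor on all 26 arrays and was not tested.

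Fabp3, the cytosolic fatty acid-binding protein of heart, read in opposite directions at the later durations without a call at either. It was 0.29 at 10 d (95% interval 0.02 to 0.56) and −0.26 at 3 wk (−0.52 to −0.01). All 5 TAC arrays at 3 wk (82647 to 104554) lay below all 4 sham arrays (106572 to 117589).

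**Figure D2:**
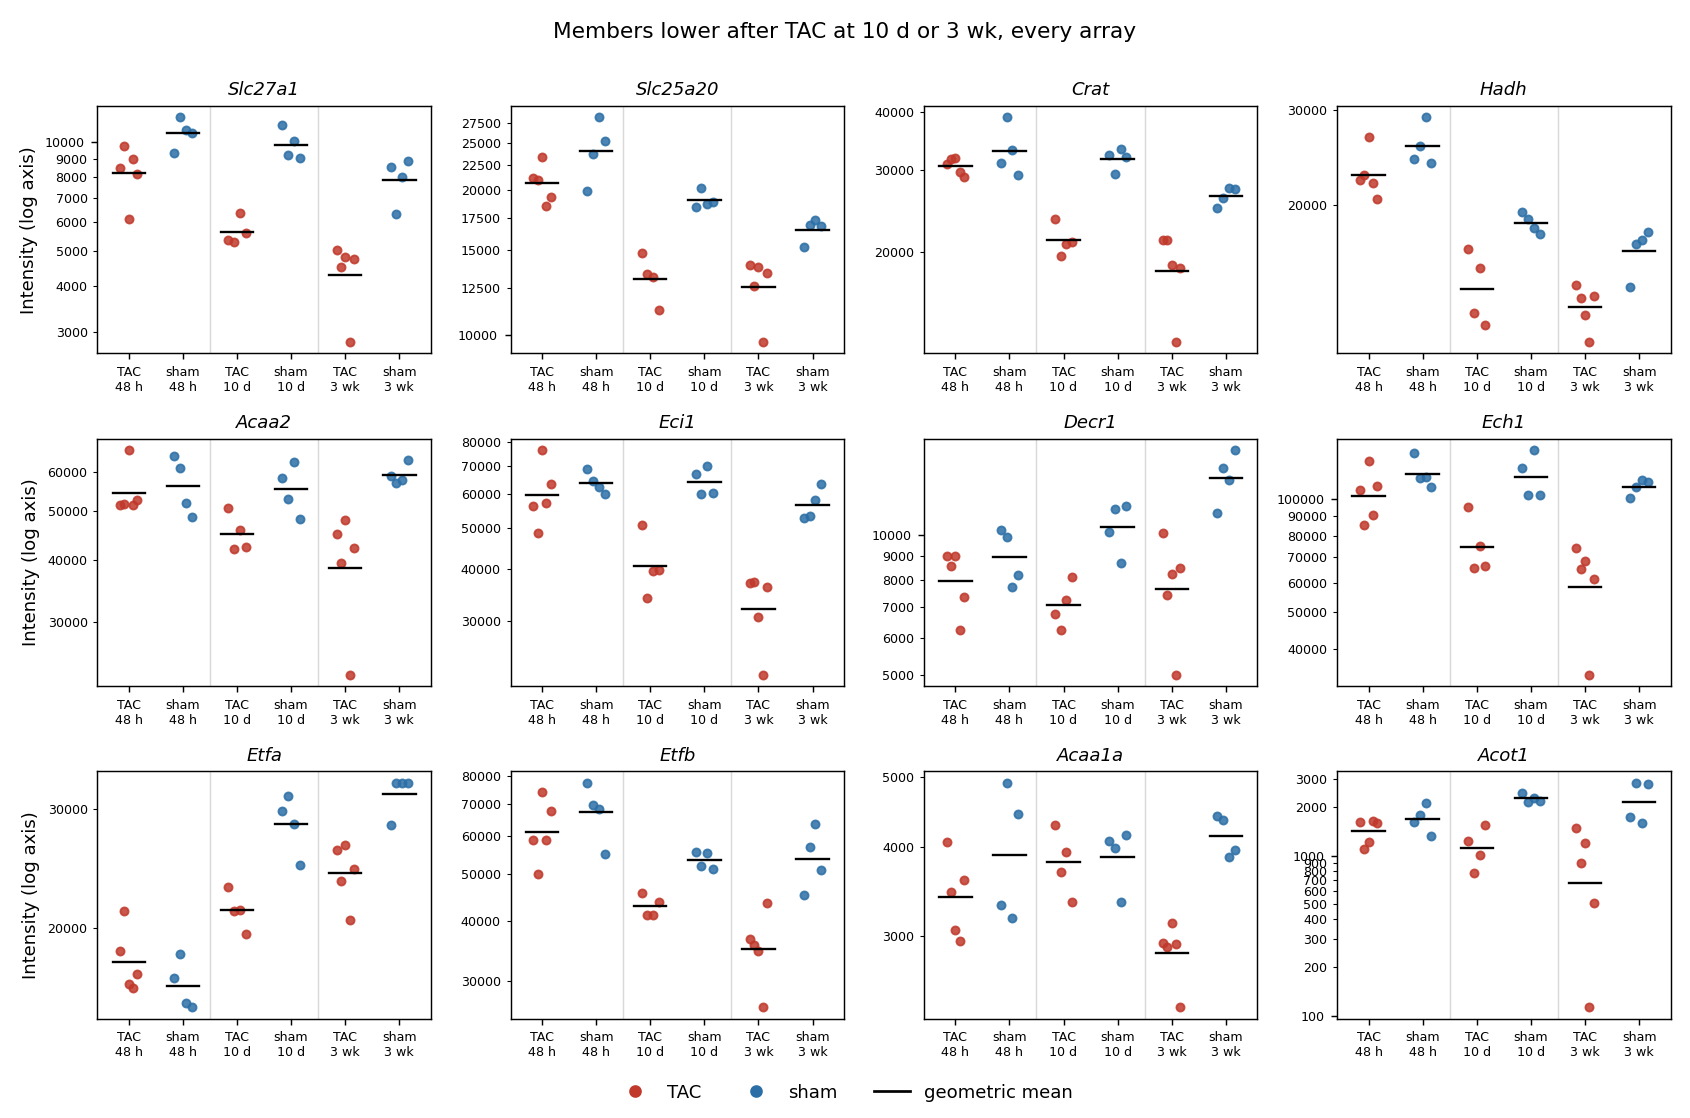
Intensity on a log axis of the 12 genes that fell at 10 d or 3 wk, 1 point per array and a line at the geometric mean of each group, with TAC (red) left of sham (blue) at 48 h, 10 d and 3 wk. At 3 wk the lowest point of most panels is 1 TAC array, replicate 4, as in Ech1 at 34132.

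In the carnitine shuttle, 2 of the 5 genes tested fell at both 10 d and 3 wk, Slc25a20 and Crat, and 0 rose. Slc25a20 encodes the carrier of the inner membrane that exchanges acylcarnitine for free carnitine. Its 10 d intensities were 14773, 13369, 13169 and 11286 in TAC hearts, against 18401, 20199.6, 18705 and 18907 in sham hearts. The 3 wk intensities were 13940.4, 12630.0, 13825, 9665 and 13444 in TAC hearts, against 15201, 16888, 17347 and 16827 in sham hearts. TAC and sham arrays did not overlap at either duration. The fall to 0.687 of the sham level at 10 d (log2 −0.54, SE 0.11, adjusted p = 0.00551) was called with each array left out in turn. That to 0.761 at 3 wk (log2 −0.39, SE 0.11, adjusted p = 0.033) lost its call when any 1 of TAC replicates 2 and 4 and sham replicates 2 to 4 was left out, and read −0.30 without TAC replicate 4 (adjusted p = 0.127). The 3 wk call was also lost with median centring, no intensity trend, the scan day fits and a fit of only the groups compared.

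Crat encodes carnitine acetyltransferase, which moves acetyl groups between coenzyme A and carnitine in the mitochondrial matrix. At 10 d it read 23606, 19582, 20842 and 21027.5 in TAC hearts, against 32379, 29409.9, 33348 and 32070.2 in sham hearts. At 3 wk it read 21235, 21260.5, 18761, 12794 and 18505 in TAC hearts, against 24938, 26177, 27464 and 27406 in sham hearts. All TAC arrays were lower than all sham arrays both times. Its change was −0.58 at 10 d (SE 0.12, adjusted p = 0.00354) and −0.54 at 3 wk (SE 0.11, adjusted p = 0.00482). Another probe set of Crat read −0.49 at 10 d without a call (adjusted p = 0.124) and fell at 3 wk, by 0.93 (adjusted p = 0.0029).

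The other 3 shuttle genes were not called. Cpt2, the inner membrane enzyme that returns acyl groups to coenzyme A, read −0.16 at 10 d and −0.35 at 3 wk (adjusted p = 0.0893); at 3 wk its TAC arrays (18833 to 30681) all lay below its sham arrays (32185 to 34972). Mlycd, which degrades malonyl-CoA, an inhibitor of the shuttle's entry enzyme, read −0.30 at 10 d and −0.28 at 3 wk. Cpt1a encodes the entry enzyme in the form that predominates in liver, while Cpt1b encodes the muscle form. Cpt1a was the only gene of the 27 with a positive change at all 3 durations: 0.03, 0.32 and 0.34, with a 95% interval of −0.15 to 0.82 at 3 wk.

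Within mitochondrial beta-oxidation, Eci1, Decr1 and Ech1 fell at 10 d and 3 wk. Double bonds of natural unsaturated fatty acids block the ordinary cycle until an isomerase (Eci1), a dienoyl-CoA reductase (Decr1) and a dienoyl-CoA isomerase (Ech1) have moved or reduced them. These 3 were put together after their calls were seen, and Eci2, another isomerase of such bonds, was not called at 10 d (−0.29, adjusted p = 0.192) or 3 wk (−0.31, adjusted p = 0.14). Of the 7 other genes of this step that were tested, 1 fell at 10 d, Hadh, and 2 fell at 3 wk, Hadh and Acaa2.

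Eci1 had 50804, 34133.5, 39360.2 and 39749 in TAC hearts at 10 d, against 67015, 60033, 69945 and 60362.5 in sham hearts. At 3 wk it had 36908.5, 37205, 30643.5, 22371 and 36154 in TAC hearts, against 52838, 53359.9, 58076 and 63435 in sham hearts. The groups were apart at both durations, with 1 TAC array at 10 d, replicate 1, nearest to sham. Its level in TAC hearts was 0.632 of sham at 10 d (log2 −0.66, SE 0.14, adjusted p = 0.00715) and 0.565 at 3 wk (log2 −0.82, SE 0.14, adjusted p = 0.000947). At 10 d it was called under every alternative and with each array left out, and at 3 wk under every one except the scan day block and the main scan day alone (−0.68 in both, adjusted p = 0.113 and 0.0694).

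Ech1 had 95132, 65475, 74904 and 66359 in TAC hearts at 10 d, against 120696, 102854, 135199.5 and 102523 in sham hearts. Its 3 wk intensities were 74023, 65116, 68328, 34132 and 61210.0 in TAC hearts, against 100548.5, 107868, 112491 and 110844 in sham hearts. No TAC array reached a sham array of the same duration, and TAC replicate 4 at 3 wk was far below the next lowest. The change was −0.62 at 10 d (SE 0.17, adjusted p = 0.0371) and −0.88 at 3 wk (SE 0.17, adjusted p = 0.00272), or −0.69 at 3 wk without TAC replicate 4 (adjusted p = 0.00392). Its 10 d call was lost without any 1 of TAC replicates 2, 3 and 4 or of the 4 sham arrays (−0.54 to −0.67, adjusted p up to 0.111). It was also lost with median centring, no filter, no intensity trend and the scan day block.

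Decr1 had 6747, 6242, 7229 and 8131 in TAC hearts at 10 d, against 10152, 11342, 8711 and 11533 in sham hearts. At 3 wk its intensities were 10090.2, 7429.5, 8246, 4997 and 8488 in TAC hearts, against 11149.8, 13935, 13097 and 15231 in sham hearts. Again the groups did not overlap. The change was −0.56 at 10 d (SE 0.16, adjusted p = 0.047) and −0.79 at 3 wk (SE 0.15, adjusted p = 0.00342). The 10 d call sat at the threshold and was lost without any 1 of the 4 TAC arrays or of sham replicates 1, 2 and 4 (adjusted p up to 0.129), and without any 1 of 6 arrays of other durations (up to 0.0542). It was also lost with quantile normalization, median centring, no filter, no intensity trend and a replicate block. Of 43 alternatives, counting each array left out, 25 kept the call.

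Promoter sequence was read from RefSeq windows of 300 bases on build GRCm38.p6, from 250 before each gene's start to 50 after it. Windows were found for 28 of the 34 genes and for 9 of the 12 that fell. Exact matches were sought on both strands for AGGTCA, the core site of nuclear receptors, for a PPAR-type element, that core repeated with 1 base between, for TCAAGGTCA, an ERR-type element, and for GGGCGG, the core of GC boxes; the longer elements contain AGGTCA. That core stood in the windows of 0 of the 9 genes that fell and 5 of the 23 tested genes with a window, and in 18.1% of all 27025 genes and 16.1% of those on the array. GGGCGG stood in 8 of the 9 (88.9%) and in 17 of the 23 (73.9%), against 38.2% of all genes and 63% of those on the array. The PPAR-type repeat and TCAAGGTCA stood in none of the 28 genes' windows, and in 0.0481% and 0.466% of all genes.

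The stretches shown are the 250 bases before the start, all on the plus strand, for 2 auxiliary enzymes and the carrier that fell at both durations, and for Ucp3, which was not called and has 2 AGGTCA matches. Capitals mark GGGCGG or its reverse complement, and in Ucp3 AGGTCA. They lie at chr17:24426433-24426682 (Eci1), chr7:28825088-28825337 (Ech1), chr9:108661886-108662135 (Slc25a20) and chr7:100472741-100472990 (Ucp3).
Eci1: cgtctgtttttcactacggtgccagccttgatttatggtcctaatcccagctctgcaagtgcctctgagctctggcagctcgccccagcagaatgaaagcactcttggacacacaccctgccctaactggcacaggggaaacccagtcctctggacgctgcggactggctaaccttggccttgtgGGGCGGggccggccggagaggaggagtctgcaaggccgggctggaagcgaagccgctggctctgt
Ech1: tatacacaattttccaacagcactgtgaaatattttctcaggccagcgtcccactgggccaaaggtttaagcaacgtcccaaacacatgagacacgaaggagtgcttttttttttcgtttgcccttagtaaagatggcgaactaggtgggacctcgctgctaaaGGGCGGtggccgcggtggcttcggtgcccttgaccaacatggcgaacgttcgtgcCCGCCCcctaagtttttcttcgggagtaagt
Slc25a20: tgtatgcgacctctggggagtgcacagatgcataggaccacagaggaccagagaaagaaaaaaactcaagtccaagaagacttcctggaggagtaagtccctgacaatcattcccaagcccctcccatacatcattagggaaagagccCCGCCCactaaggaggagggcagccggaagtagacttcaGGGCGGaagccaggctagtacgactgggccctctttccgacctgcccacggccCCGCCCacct
Ucp3: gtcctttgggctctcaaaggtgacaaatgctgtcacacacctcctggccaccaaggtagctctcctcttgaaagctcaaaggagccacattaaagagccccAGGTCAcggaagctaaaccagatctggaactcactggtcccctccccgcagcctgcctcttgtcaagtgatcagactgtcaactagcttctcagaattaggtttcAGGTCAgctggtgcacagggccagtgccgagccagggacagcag
A match describes these letters only, and the lack of one says nothing about a factor.

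Hadh encodes the hydroxyacyl-CoA dehydrogenase of short chains, the third step of the cycle. Its 10 d intensities were 16567, 12594, 15279 and 12001 in TAC hearts, against 19379, 18814, 18147 and 17683 in sham hearts, with no overlap. At 3 wk they were 14212, 13454, 12482, 11139 and 13572 in TAC hearts, against 14073, 16909, 17204 and 17812 in sham hearts. Here TAC replicate 1 lay just above sham replicate 1, so the groups overlapped. The change was −0.40 at 10 d (adjusted p = 0.0288) and −0.35 at 3 wk (adjusted p = 0.0485). Both calls were close to the threshold. The 10 d call was lost when any 1 of TAC replicates 2 and 4 and sham replicates 1 to 3 was left out (adjusted p up to 0.11). The 3 wk call was lost without any 1 of 18 of the 26 arrays, among them 3 wk TAC replicates 2, 3, 4 and 5 and sham replicates 2, 3 and 4 (up to 0.156). Median centring lost both calls, as did the scan day fits. No filter, no intensity trend, a replicate block and a fit of only the groups compared also lost the 3 wk call. Of 43 alternatives, counting each array left out, 35 kept the 10 d call and 17 the 3 wk call.

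Acaa2 encodes the thiolase that ends the mitochondrial cycle. It had 45066, 39365, 48169.5, 23544.5 and 42176 in TAC hearts at 3 wk, against 58867, 56897, 57849.5 and 63346 in sham hearts. All 5 TAC arrays were below all 4 sham arrays, and sham arrays spread little. It fell to 0.651 of sham (log2 −0.62, SE 0.15, adjusted p = 0.0121), with a change of −0.44 without TAC replicate 4 (adjusted p = 0.0282) and −0.38 on the main scan day alone (adjusted p = 0.268). At 10 d it read −0.29 (adjusted p = 0.279), with 41956 to 50774 in TAC and 48278 to 62811 in sham hearts.

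The acyl-CoA dehydrogenases that start each round were not called at any duration. Acadl, the long-chain enzyme, had 15813, 22997, 22877 and 33584 in TAC hearts at 10 d, against 23198.5, 26767, 13467 and 19501 in sham hearts. Its 3 wk intensities were 28804, 32447, 33739.9, 22892 and 31389.6 in TAC hearts, against 31054, 46848, 42989.8 and 34607 in sham hearts. Both pairs of groups overlapped, and the spread among arrays of a group was wide: the 95% interval of the change was −0.44 to 0.83 at 10 d and −0.98 to 0.23 at 3 wk.

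Acadm, the medium-chain enzyme, had 41854, 36847, 44304 and 40758.5 in TAC hearts at 10 d, against 37191, 65516.5, 40885 and 50572 in sham hearts. At 3 wk it had 66831, 36981, 39037.5, 32565 and 44841.5 in TAC hearts, against 43386, 49044, 54755 and 51359.8 in sham hearts. Groups overlapped both times, and TAC replicate 1 was the highest of all 9 arrays at 3 wk. The intervals ran from −0.72 to 0.30 at 10 d and from −0.70 to 0.27 at 3 wk. Acads, the short-chain enzyme, read −0.25 at 10 d (−0.73 to 0.23) and −0.23 at 3 wk (−0.68 to 0.23). Another probe set of Acads read −0.42 at 10 d (−0.77 to −0.07, adjusted p = 0.145), with 4022 to 4560 in TAC and 5383 to 6068 in sham hearts and no overlap, and −0.16 at 3 wk. Whether any of these genes changed less than Eci1, Decr1 or Ech1 was not tested. Acadvl, the very-long-chain enzyme, was below the floor on 21 and 24 of the 26 arrays in its 2 probe sets and was not tested.

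Hadhb, the thiolase subunit of the trifunctional protein of long chains, had narrower intervals. Its 10 d intensities were 101959, 83315, 87261 and 117881 in TAC hearts, against 113109.9, 96730.2, 103949.9 and 99731 in sham hearts. At 3 wk they were 81699, 77048, 72743, 75685.5 and 88927 in TAC hearts, against 89380.1, 83628, 91151 and 92431.5 in sham hearts. The groups overlapped at both durations, and its change of −0.09 at 10 d (−0.32 to 0.14) and −0.17 at 3 wk (−0.39 to 0.05) was not called. With quantile normalization the 3 wk change read 0.05. Echs1, the hydratase of the second step, read −0.27 at 10 d (adjusted p = 0.179) and −0.25 at 3 wk (adjusted p = 0.196).

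In electron transfer, both subunits of the flavoprotein that takes electrons from the acyl-CoA dehydrogenases were lower in TAC hearts, Etfa at 10 d and 3 wk and Etfb at 3 wk. Etfa read 23053, 21220.3, 21255 and 19608 in TAC hearts at 10 d, against 29834.5, 31413, 28563 and 24833 in sham hearts. Its 3 wk values were 26105, 23516, 26541, 20587 and 24493 in TAC hearts, against 28409, 32743, 32831 and 32739.8 in sham hearts. The groups stayed apart, and sham replicate 1 at 3 wk stood below 3 close sham values. It fell by 0.43 on the log2 scale at 10 d (SE 0.10, adjusted p = 0.0129; 0.0503 without sham replicate 2). At 3 wk it fell by 0.39 (SE 0.10, adjusted p = 0.0159), a call lost without TAC replicate 4 or sham replicate 3 or 4 (up to 0.0644). Median centring, the scan day fits and a fit of only the groups compared also lost the 3 wk call.

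Etfb had 36756, 35712, 34685, 26463 and 43492 in TAC hearts at 3 wk, against 45282, 56823, 63605 and 50989 in sham hearts. TAC arrays all lay below sham arrays, and the lowest was again replicate 4. It fell to 0.651 of sham (log2 −0.62, SE 0.13, adjusted p = 0.00476), and it was the gene still called on the main scan day alone (−0.75, adjusted p = 0.0278). At 10 d its groups of 41099 to 45690.0 in TAC and 51256 to 55558 in sham hearts did not overlap, without a call (log2 −0.32, adjusted p = 0.164). Another probe set of Etfb was not called and read −0.12 at 10 d and −0.25 at 3 wk (adjusted p = 0.611). Etfdh, which passes the electrons on to ubiquinone, read −0.23 at 10 d and −0.38 at 3 wk (95% interval −0.77 to 0.01).

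Among the peroxisomal genes, which shorten very long and branched fatty acids, 1 of 3 tested fell, at 3 wk. Acaa1a, a peroxisomal thiolase, had 2938, 2898.5, 3131, 2928 and 2389.9 in TAC hearts at 3 wk, against 4414, 4349, 3863 and 3962 in sham hearts. TAC arrays were lower without overlap, with replicate 5 lowest and replicate 4 in the middle of its group. It fell to 0.687 of sham (log2 −0.54, SE 0.13, adjusted p = 0.0121), while at 10 d it read −0.03 (−0.30 to 0.25). Mouse has a close paralog of this gene, and whether the probe set also reads it was not tested. Hsd17b4, the peroxisomal bifunctional enzyme, read −0.27 at 10 d and −0.11 at 3 wk, and Eci2, the isomerase of peroxisomes and mitochondria given above, was not called. Ehhadh, another bifunctional enzyme, was below the floor on 17 of 26 arrays and was not tested.

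Acot1, a cytosolic thioesterase that splits acyl-CoA into free fatty acid and coenzyme A, showed the largest change of the 27 genes. Its 10 d intensities were 1239.5, 783.6, 1015 and 1544 in TAC hearts, against 2461.5, 2174, 2290.4 and 2197 in sham hearts. At 3 wk they were 1479.6, 901.2, 1192, 112.5 and 508.1 in TAC hearts, against 1750.5, 2863, 1593 and 2800.4 in sham hearts. Groups did not overlap at either duration, sham arrays at 10 d were close together, and TAC replicate 4 at 3 wk lay below the floor. The 3 wk change was −1.70 (SE 0.39, adjusted p = 0.00982) with that value at the floor, −1.20 without the array (adjusted p = 0.0165) and −0.87 on the main scan day alone (adjusted p = 0.152). At 10 d it read −1.04 without a call (SE 0.41, adjusted p = 0.136). It was called there without 3 wk TAC replicate 4 (the same change, adjusted p = 0.0205) and on the main scan day alone (−1.20, adjusted p = 0.00439). Acot1 and Acot2 are close paralogs, and whether this probe set reads both was not tested.

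Pdk4, a kinase that shuts off pyruvate dehydrogenase and so favours fatty acids over glucose, had 12759, 14702, 13620.1 and 14807 in TAC hearts at 10 d, against 26085, 26019, 14175 and 10941 in sham hearts. Its 3 wk intensities were 21978, 16680.3, 32789.9, 6742 and 19188 in TAC hearts, against 32218, 42620.2, 24520.4 and 42381 in sham hearts. The sham arrays at 10 d split into 2 high and 2 low values, and at 3 wk TAC replicate 3 lay within the sham range. The 3 wk change of −0.997 was not called (SE 0.33, adjusted p = 0.0758) and read −0.66 without TAC replicate 4 (adjusted p = 0.251). It was called without TAC replicate 3 (−1.23, adjusted p = 0.022).

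Ucp3, an uncoupling protein of muscle mitochondria, had 1632, 1192, 1166 and 1124 in TAC hearts at 10 d, against 2652, 1826, 1569 and 1712 in sham hearts. The 3 wk values were 1672, 938.4, 1930.2, 574.4 and 2356.5 in TAC hearts, against 1834, 1328, 1878 and 2019.8 in sham hearts. One TAC array overlapped sham at 10 d, and at 3 wk TAC arrays lay on both sides of sham. Neither −0.59 at 10 d (95% interval −1.23 to 0.05) nor −0.39 at 3 wk (SE 0.29) was called, and the 3 wk value was −0.09 without TAC replicate 4.

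Counted by order rather than by test, 11 of the 27 genes at 10 d and 13 at 3 wk had every TAC array below every sham array, against 8.09% and 4.51% of all genes, and 0 had every TAC array above, against 7.93% and 4.4%. The 8 genes that fell at both durations were 100% of the 10 d genes and 66.7% of the 3 wk genes. Over all genes, the 30 that fell at both were 27% of those lower at 10 d and 28.6% of those lower at 3 wk. The 10 d and 3 wk comparisons have no array in common, though 1 model fitted both. Across the 27 genes their changes correlated at r = 0.731 (rho 0.681), against r = 0.446 across all 5564 genes, and 25 of the 27 had the same sign. These are descriptions across genes, which are not independent replicates.

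Array by array, the shift was seen on every TAC array at the later durations. All arrays of a duration were set against 1 mean of its 4 sham arrays, so error in that mean moves them together. The median deviation of the 27 genes from the sham mean of the same duration was −0.219, −0.4, −0.374 and −0.351 in the 4 TAC arrays at 10 d, against 0.055, 0.025, 0.008 and −0.052 in the 4 sham arrays. At 3 wk it was −0.294, −0.419, −0.253, −0.745 and −0.299 in TAC arrays, against −0.122, 0.03, 0.054 and 0.053 in sham arrays. All TAC arrays lay below all sham arrays at both durations. At 48 h the values were −0.147, −0.169, 0.059, −0.192 and −0.117 in TAC arrays, against 0.088, 0.091, 0.01 and −0.155 in sham arrays, and the groups overlapped. The same median over all genes tested stayed between −0.016 and 0.022 on every array. Since the arrays had nearly equal trimmed means, it says little about how far a median of 27 genes can stray.

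**Figure D3:**
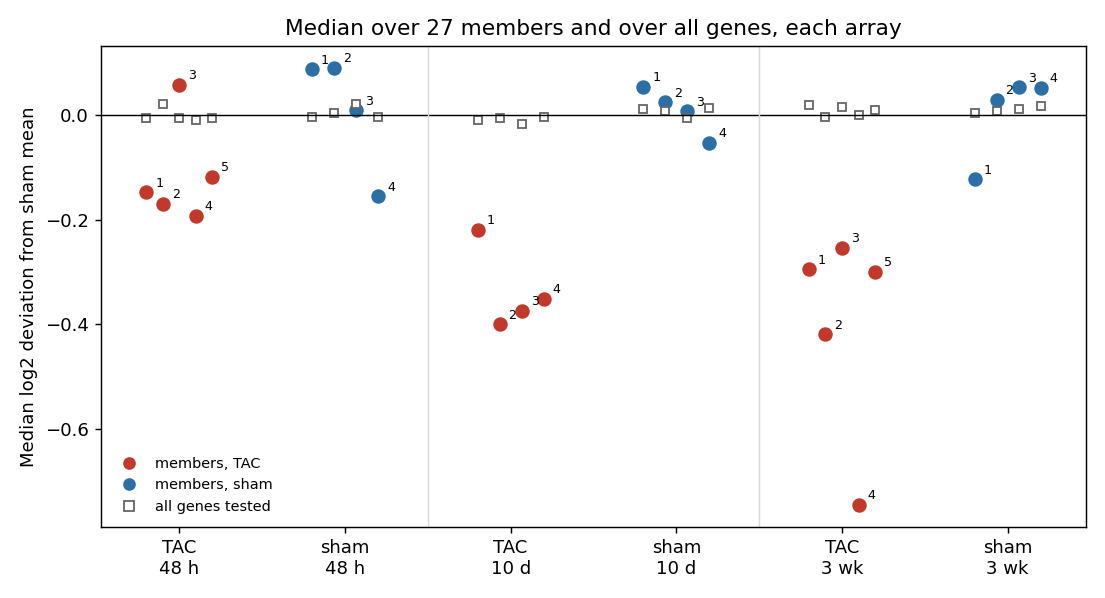
Median log2 deviation from the sham mean of the same duration, for each array, over the 27 genes (filled circles, TAC red and sham blue, with replicate numbers) and over all genes tested (open squares). At 10 d and 3 wk all TAC circles lie below all sham circles, TAC replicate 4 at 3 wk is lowest at −0.745, and the squares stay near 0.

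TAC replicate 4 at 3 wk stood apart. It was the lowest of its 5 arrays in 23 of the 27 genes, while it was lowest in 23.2% of all genes. Without it, the 3 wk median was −0.29 in place of −0.38, and Slc25a20, Hadh and Etfa were no longer called. Its summed intensity of 17 fibroblast markers was 408960, the highest of the TAC group (300220 to 408960), against 236410 to 302600 in sham hearts. Its macrophage and endothelial sums of 72316 and 109270 were also the highest of its group, and its cardiomyocyte sum of 1225500 was in the middle. The Gapdh and Actb ratios of this array, 0.842 and 1.16, lay inside the range of the other arrays. The part of these values in the result was not tested.

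**Figure D4:**
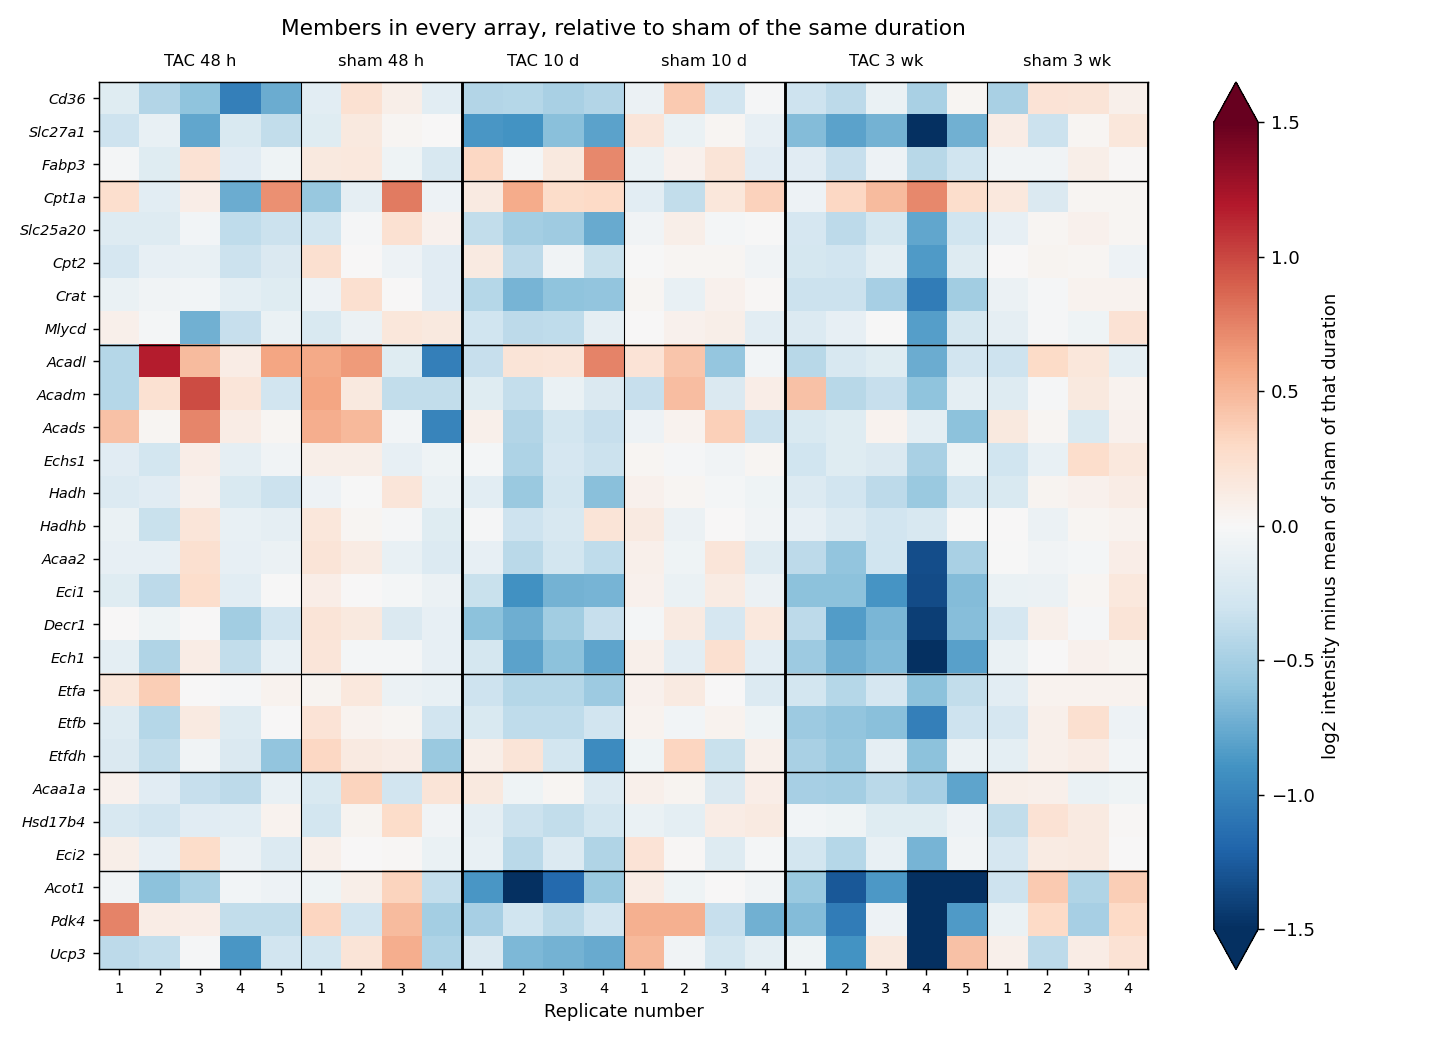
Log2 intensity minus the sham mean of the same duration for the 27 genes (rows, by step) in all 26 arrays (columns, by group and replicate), with blue below and red above that mean and colours ending at 1.5 either way. TAC columns at 10 d and 3 wk are mostly blue, TAC replicate 4 at 3 wk is deepest, and Cpt1a is red in most of them.

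Whether the TAC effect itself changed with duration was tested as a difference of differences. No gene of the 27 was called for 10 d minus 48 h (smallest adjusted p by limma 0.104, Etfa), for 3 wk minus 10 d (0.457, Fabp3) or for 3 wk minus 48 h (0.141, Etfa). Of all genes, 0.108%, 0.018% and 0% were called in these tests. At an unadjusted p under 0.05 there were 3, 2 and 10 of the 27 genes. The share of all genes at that looser threshold was not counted, so these counts have nothing to be set against. The 10 for 3 wk minus 48 h were Slc27a1, Crat, Acaa2, Eci1, Decr1, Ech1, Etfa, Etfb, Acot1 and Pdk4, all more negative at 3 wk. The median difference was −0.23, −0.08 and −0.35.

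Sham hearts differed between durations too, with scan day and duration not to be told apart. At 10 d against 48 h, 2 of the 27 genes were higher and 3 lower (22% of all genes called), at 3 wk against 10 d 1 and 2 (2.86%), and at 3 wk against 48 h 5 and 9 (33.4%). Acadl was higher in 3 wk sham than in 48 h sham by 1.93 (adjusted p by limma 4.37e-05) and Etfa by 0.94 (1.96e-07), while Hadh was lower by a change of −0.65 (6.89e-05). All comparisons of TAC with sham are therefore given within a duration.

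Other genes around the pathway were grouped in 4 lists: regulators, lipid supply, related oxidation and other peroxisomal genes. Of 69 tested, 0 were called at 48 h, 0 rose and 5 fell at 10 d, and 1 rose and 3 fell at 3 wk, with medians of −0.07, −0.20 and −0.15. Ivd, Bckdha and Hsd17b10, enzymes of branched-chain amino acid oxidation, fell at both later durations. Ivd, isovaleryl-CoA dehydrogenase, which also feeds the electron transfer flavoprotein, read −0.78 at 10 d (SE 0.15, adjusted p = 0.00178) and −0.63 at 3 wk (SE 0.14, adjusted p = 0.00761). Bckdha, a subunit of the branched-chain keto acid dehydrogenase, read −0.49 at 10 d and −0.50 at 3 wk, and Hsd17b10, a mitochondrial hydroxyacyl-CoA dehydrogenase, −0.47 and −0.47. Acot7, another thioesterase (−0.51), and Scp2, a peroxisomal thiolase and lipid carrier (−0.44), fell at 10 d.

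Of 16 regulators tested, none fell and 1 rose, Hif1a, the oxygen-sensing transcription factor subunit, at 3 wk (log2 0.69, SE 0.14, adjusted p = 0.00357). Ppara, the receptor PPARα, read −0.48 at 10 d (SE 0.16, adjusted p = 0.0769) and −0.34 at 3 wk (adjusted p = 0.202). Ppargc1a, its coactivator PGC-1α, read −0.85 at 10 d (SE 0.34, adjusted p = 0.14) and −0.92 at 3 wk (SE 0.32, adjusted p = 0.0918). Neither passed the threshold, and these values do not show that the 2 regulators were unchanged. Esrra, the receptor ERRα, read −0.26 at 10 d and −0.17 at 3 wk, and Rxrg, a partner receptor of PPARα, −0.07 and −0.05. Of 21 lipid supply genes none was called. Lpl, the lipase that frees fatty acids from lipoproteins, read 0.43 at 10 d and −0.40 at 3 wk, and Slc22a5, the carnitine transporter, −0.38 and −0.19. Oxct1, which starts ketone body use, read −0.10 at 10 d and 0.09 at 3 wk.

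**Figure D5:**
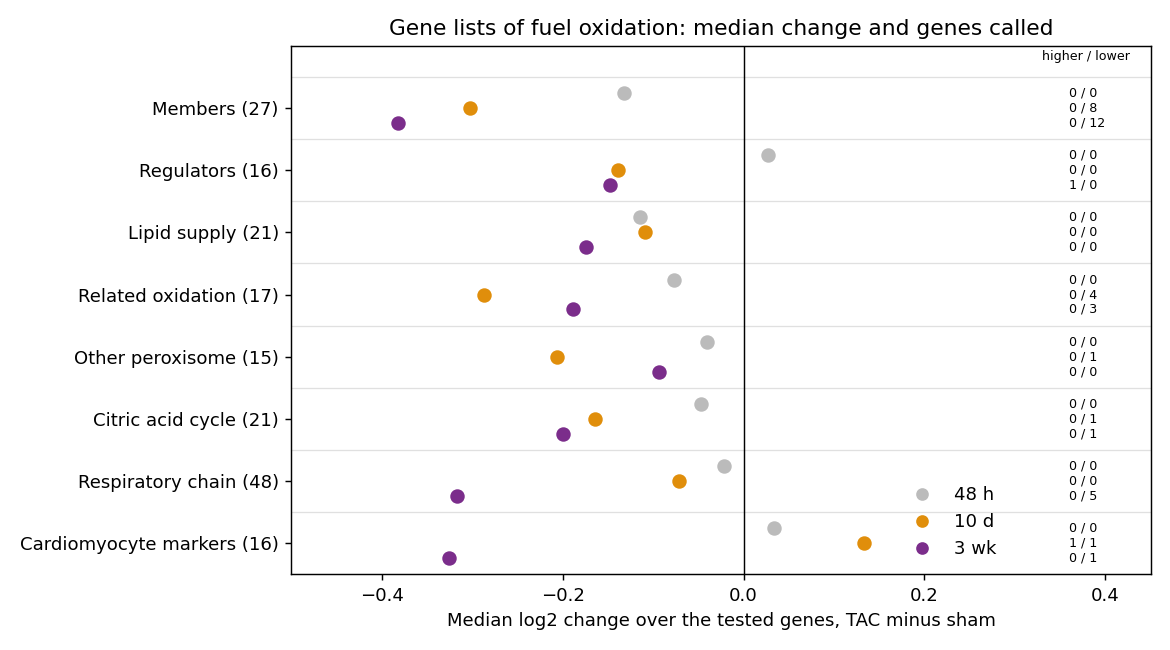
Median log2 change, TAC minus sham, of the tested genes of each list (number in brackets) at 48 h (grey), 10 d (orange) and 3 wk (purple), with genes called higher and lower at each duration on the right. The 27 genes have medians of −0.30 at 10 d and −0.38 at 3 wk, related oxidation is at −0.29 and −0.19, and the respiratory chain is near 0 at 10 d and at −0.32 at 3 wk.

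Acetyl units and electrons from beta-oxidation enter the citric acid cycle and the respiratory chain. Of 21 citric acid cycle genes, 1 fell at 10 d, Sdha, a subunit of succinate dehydrogenase (log2 −0.47, SE 0.12, adjusted p = 0.0205), and 1 at 3 wk, Dlst, a subunit of the oxoglutarate dehydrogenase complex (log2 −0.34, SE 0.10, adjusted p = 0.0364). Medians were −0.16 at 10 d and −0.20 at 3 wk. Of 48 respiratory chain genes, 0 were called at 10 d, with a median of −0.07, and 5 fell at 3 wk, with a median of −0.32. They were Cox7a1 (−0.50), Cox5b (−0.41), Ndufa6 (−0.39), Uqcrb (−0.38) and Ndufab1 (−0.37), which encode subunits of respiratory complexes. At 3 wk the change was negative in 21 of the 21 citric acid cycle genes, 45 of the 48 respiratory chain genes and 26 of the 27 genes. These counts were 17, 32 and 24 at 10 d, and the share of all genes with a negative change was not counted. No test compares these lists with the 27 genes.

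Markers of other cell types moved with the later durations. At 10 d, 8 of 17 fibroblast markers rose, with Postn at 2.90 and Col1a1 at 2.02, and 4 had a negative change (lowest −0.77), not called. The fibroblast sum was 293740 to 363430 in TAC hearts, against 217460 to 240580 in sham hearts. A negative change was also seen in 3 of 14 endothelial and 0 of 10 macrophage markers. Of 10 macrophage markers 8 rose, with Ctss at 0.83 and Lyz2 at 0.80 (sum 70151 to 76292 in TAC, 48720 to 50848 in sham hearts) and of 14 endothelial markers 5 rose, with Cldn5 at 1.31 and Cd34 at 1.29 (91609 to 107190 in TAC, 75306 to 81347 in sham hearts). Of 16 cardiomyocyte markers 1 rose and 1 fell at 10 d, Des at 0.49 and Ryr2 at −0.43, the median was 0.13, and the sums overlapped (946490 to 1937300 in TAC, 1003900 to 1573000 in sham hearts). At 3 wk 1 of the 16 fell, Ckm, the median was −0.33, and the sum was 1166800 to 1335600 in TAC hearts, against 1361200 to 1660200 in sham hearts, without overlap.

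At 3 wk 8 of 17 fibroblast, 4 of 10 macrophage and 1 of 14 endothelial markers were called higher, and none was called lower. A negative change was seen in 6, 1 and 3 of them. The sums of these lists were 300220 to 408960, 53356 to 72316 and 84996 to 109270 in TAC hearts, against 236410 to 302600, 47416 to 53908 and 78061 to 84401 in sham hearts. The fibroblast and macrophage sums overlapped between TAC and sham, and the endothelial sums did not. None of the 8 adipocyte markers tested was called at any duration. Adipoq, which marks fat cells, was 333.1 to 2128 over all arrays, and Cidec, a fat cell lipid droplet protein, was below the floor on all 26. Other genes of the adipocyte list were above the floor on all 26: Lep (1287.6 to 4464.3), Fabp4 (1060.3 to 5327.9) and Lipe (944 to 3165.1). Retn was below it on 19 arrays and Car3 on 6. The adipocyte sum at 3 wk was 18798 to 25714 in TAC hearts, against 23323 to 30592 in sham hearts, with overlap. Brown fat is rich in these enzymes as well. Its defining marker Ucp1 was at most 441.7 and below the floor on 10 of 26 arrays. Elovl3 of the same list was below the floor on 21 arrays, while Cidea was 2272.5 to 5538.9 and above it on all 26. The summed brown fat list, which includes Cox7a1, Cox8b and Ppargc1a that heart muscle also makes, did not overlap at 3 wk (77970 to 109490 in TAC, 127650 to 140840 in sham hearts); 1 of its 4 tested members fell, Cox7a1. The summed skeletal muscle list was higher in TAC hearts without overlap (118510 to 144910 in TAC, 77971 to 89043 in sham hearts at 3 wk), with Acta1 at 1.07. Of its 8 tested members Acta1 rose and Ckm fell at 3 wk, 6 had a negative change, and the median was −0.26. The part of cell makeup in the falls was not tested.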

How the data were processed

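The authors deposited 1 intensity per probe set and array on a linear scale; the probe summary method is not given in the labels or headers. The mean after trimming 2% at each end was nearly equal on all 26 arrays, so no scaling was added. Values below the 20th percentile (167.9) were set to it, log2 was taken, and probe sets above the pooled median (880.1) on at least 4 arrays were kept, 7297 of 12488. A probe set was given a gene only where the platform annotation lists 1, and a gene stands for its tested probe set of highest mean. R 4.3.3 and limma 3.58.1 fitted 6 group means (lmFit, eBayes with an intensity trend) with Benjamini-Hochberg adjustment over the 7297 probe sets. The fit was also run on simulated arrays with noise independent between probe sets and no scan day. That run was passed on the median sizes of planted changes alone, and it cannot check the calls where scan day differs. Figures used Python 3.11.15 with matplotlib 3.10.9. The 34 genes, the lists and the tests were chosen with earlier results of these data known. Values in every array were to be given for genes called and for Cpt1b, Cd36, Acadm, Acadl, Hadha, Hadhb, Pdk4 and Ucp3; other lists were limited to up to 4 called genes a duration and a few preset genes. Same-numbered TAC and sham arrays did not deviate together (r = −0.131 to 0.032), and the numbers were not used as pairs. This check cannot show whether the numbers mark pairs of another kind. Alternatives were other scalings, floors and filters, array weights, scan day, a replicate block and leaving out each array.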

Additional observations from a re-analysis of the deposited data

Results flagged for a closer look

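Of 162 combinations of a gene and a group, 10 had 1 array far from the others of its group by Dixon's test. Chance alone gives about 5%, and the count is near that share. The combinations share arrays and are not independent. In 6 of them TAC replicate 4 at 3 wk was the low array: Slc27a1 (2806 against 4522 in the next lowest TAC array), Slc25a20 (9665 against 12630.0), Cpt2 (18833 against 27755), Crat (12794 against 18505), Acaa2 (23544.5 against 39365) and Ech1 (34132 against 61210.0). These are intensities, and without this array Slc27a1, Crat, Acaa2 and Ech1 were still called at 3 wk, Slc25a20 was not, and Cpt2 was called neither way. Acaa1a was low in TAC replicate 5 at 3 wk (2389.9 against 2898.5). Acaa2 was high in TAC replicate 3 at 48 h (66401 against 52807), and Ucp3 in TAC replicate 1 at 10 d (1632 against 1192). Etfa was low in sham replicate 1 at 3 wk (28409 against 32740 in the next lowest sham array).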

How the results depend on the processing

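Under 17 other settings and with each of 26 arrays left out, no called change reversed. Of 860 repeats of single called genes, 752 stayed called and 108 did not. Many of these repeats could not reverse a change. Arrays of other durations do not enter its group means, and some settings alter only its p-value. The 752 is therefore no measure of how stable the calls were. Among changes that were not called, these took the other sign in at least 1: at 48 h Fabp3, Cpt1a, Crat, Acadm, Acads, Acaa2, Etfb, Eci2 and Pdk4, at 10 d Etfdh and Acaa1a, and at 3 wk Hadhb. Cd36, Etfb and Acot1 at 10 d and Pdk4 at 3 wk were called in at least 1. Genes called at 10 d numbered 8, 5 with median centring and 4 to 9 with 1 array left out: 5 without TAC replicate 2, TAC replicate 4 or sham replicate 1, and 4 without sham replicate 2. At 3 wk they numbered 12, 6 with only the groups compared in the fit, 6 on arrays of known scan day with no block (added after seeing the data), 1 on the main scan day alone, 0 with scan day as a block, and 9 to 12 with 1 array left out. At 48 h the count was 0 throughout. Medians with 1 array left out were −0.17 to −0.09 at 48 h, −0.36 to −0.30 at 10 d and −0.43 to −0.29 at 3 wk. Differences between durations had 0 calls, except 1 for 10 d minus 48 h with array weights. Sham calls at 10 d against 48 h numbered 5, 8 with median centring, 2 with the scan day block and 3 to 7 with 1 array left out (3 without 48 h sham replicate 3 or 10 d sham replicate 1). At 3 wk against 10 d they numbered 3, 0 with the block, 1 on arrays of known scan day with no block, 1 on the main scan day alone and 1 to 3 with 1 array left out (1 without 3 wk sham replicate 1 or 2). At 3 wk against 48 h they numbered 14, 8 with the block, 9 on arrays of known scan day with no block, 9 on the main scan day alone and 10 to 16 with 1 array left out. The replicate block, whose numbers are not known to mark pairs, gave 0, 7 and 11 calls at 48 h, 10 d and 3 wk, and 5, 3 and 15 between sham groups. Scan day fits drop arrays, and other causes were not tested. Acot1 is the called gene with a value below the floor.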
